A study of Mus musculus with 27 samples.

Results

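Transcriptomes of WT muscle were compared between D1 and D4 after injection of cardiotoxin (CTX, a peptide of cobra venom that ruptures myofibres, after which the muscle regenerates). The comparison used 6 of the 27 libraries of the series, namely the 3 WT libraries labelled Day1 and the 3 labelled Day4, and was chosen by these labels alone. Each group was described as biological triplicates of gastrocnemius muscle, although the design text names the thigh as the site of injection and the study's methods the gastrocnemius. The mice were male C57BL/6J per these methods, which name CTX of Naja pallida, and the age was not given in the sources used here. No transgene was involved, and both groups had received CTX, so that neither is an uninjured control. The other libraries were WT on D7 and D14, KO (mice labelled Gsdme KO in the titles and Gsdme knockdown in the genotype field) on D1, D4, D7 and D14, and WT control muscle, with 3 libraries in each group.

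CTX destroys myofibres and spares most of the resident stem cells, known as satellite cells or MuSCs, which carry the transcription factor Pax7. Neutrophils and then monocyte-derived macrophages clear the debris, while MuSCs divide, commit through Myf5, Myod1 and Myog, and fuse into new fibres with the help of the membrane proteins Mymk (myomaker) and Mymx (myomixer). New fibres first use embryonic forms of the contractile proteins, and fibro-adipogenic progenitors (FAPs), the connective tissue cells of muscle, lay down a transient collagen matrix around them. In bulk tissue, fewer cells of a type and less RNA per cell cannot be told apart, and this holds for every level given here.

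The values are TPM (transcripts per gene corrected for gene length and expressed relative to a fixed sum per library), so the depth of each library is unknown. Between 13105 and 13966 genes reached 1 TPM on D1 and between 13967 and 14704 on D4. From 32.8% to 48.2% of the TPM on D1, and from 25.4% to 35.0% on D4, fell to the 50 most abundant genes. The study names 2 sequencing batches, both of which include injured WT muscle on D1, and does not say which of them the D1 libraries used here come from. If they belong to the other batch, day and batch cannot be told apart. Defining markers of muscle were present in every library: Ckm, the muscle creatine kinase, was from 9749 to 20981 TPM on D1 and from 3163 to 7887 TPM on D4. Libraries of a group differed in their cell content as well. D1 replicate 2 and D4 replicate 1 had the highest summed TPM of the 18 pan macrophage genes in their groups (5866 and 9878, against 1344 to 3686 and 4445 to 6175 in the others), and D1 replicate 3 had the highest summed TPM of the 30 genes of mature myofibres (245898, against 121992 and 147898). The part of these differences in the results was not tested beyond leaving out each library.

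Of 14172 genes tested with limma on log2(TPM + 1), 1109 were higher and 185 lower on D4 at an adjusted p under 0.05 (called genes), that is 9.13% of the genes in either direction, 7.83% higher and 1.31% lower. The libraries of the 2 groups did not overlap for 30.4% of all tested genes. Over all genes the median log2 difference was 0.18. After median-of-ratios scaling, after quantile normalization and without the 50 most abundant genes, that median was -0.03, -0.04 and -0.01, and the calls were 1030 higher and 426 lower, 984 higher and 461 lower, and 981 higher and 410 lower. The share of higher genes among the calls was thus 85.7% as deposited and from 68.1% to 70.7% after rescaling. All 3 scalings kept 824 of the higher and 162 of the lower calls. The number of calls also depended on single libraries: it was 420 without D1 replicate 1, 1367 without D1 replicate 2, 847 without D1 replicate 3, 579 without D4 replicate 1, 247 without D4 replicate 2 and 420 without D4 replicate 3. Of the calls, 215 higher and 16 lower held in each of these 6 fits. The filter on low values was applied anew in each, so that 244 called genes were not tested in at least 1 of them, and 313 higher and 20 lower calls held in each fit that tested the gene.

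**Figure D1:**
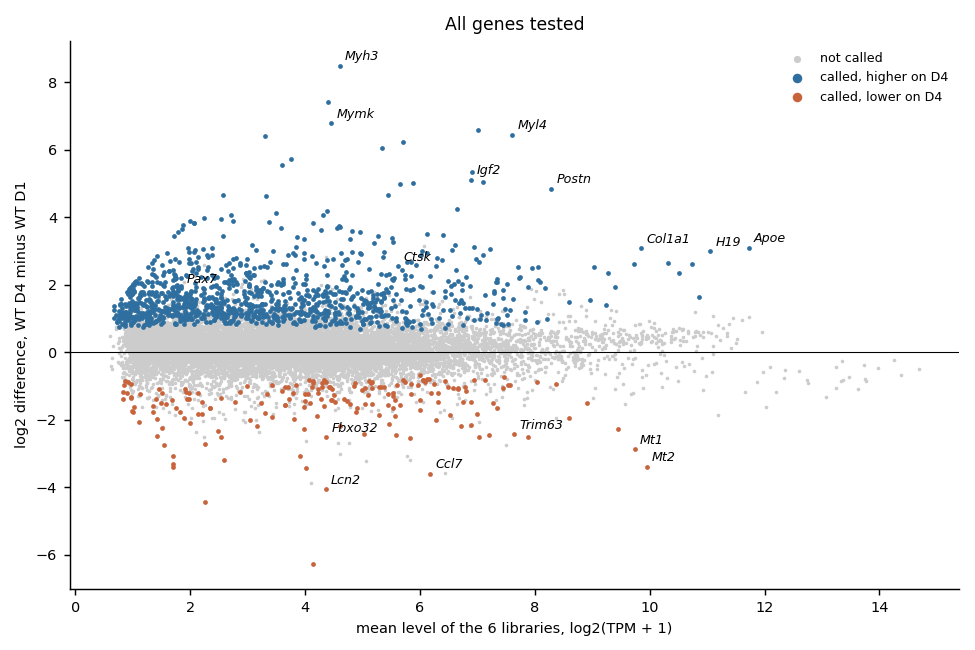
Difference between D4 and D1 (y axis, log2 scale) against the mean level of the 6 WT libraries (x axis, log2(TPM + 1)) for the 14172 tested genes, with called genes in blue (1109 higher on D4) and orange (185 lower on D4). Myh3, Mymk and Myl4 lie at the top and Mt1 and Mt2 are the abundant genes at the bottom right.

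The largest rises were in genes of myoblast fusion and of new fibres. Mymk, the fusion protein myomaker, was 0.85, 1.78 and 0.72 TPM on D1 and 353.4, 177.2 and 191.5 TPM on D4, and its partner Mymx was 0.72, 1.71 and 0.37 TPM on D1 and 216.6, 68.2 and 63.0 TPM on D4. No D1 library came near a D4 library for either gene. The log2 difference was 6.80 (SE 0.327, adjusted p = 0.000165) for Mymk and 5.74 (SE 0.503, adjusted p = 0.00147) for Mymx. Both calls held without each library in turn and under the 3 scalings. Of the D1 libraries, however, only replicate 2 reached 1 TPM for either gene. Both thus passed the filter on low values through the D4 libraries, so their calls and these fits are no independent support.

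Of 25 tested satellite cell and myogenic regulator genes, 17 were higher (7.83% of all genes were higher) and 0 lower on D4. The median log2 difference was 1.79 (0.18 over all genes). The list's median stayed between 1.56 and 1.84 with each library left out, and its number of higher genes between 11 and 16. Pax7, the defining factor of MuSCs, was 0.74, 1.03 and 0.79 TPM on D1 and 5.90, 5.84 and 6.05 TPM on D4 (log2 difference 1.91, SE 0.193, adjusted p = 0.00232). The range was narrow within each day, but the D1 values lay near the filter of 1 TPM, which only replicate 2 reached. Pax7 thus passed the filter through the D4 libraries, and its call, which is part of the 17, is no independent support. Myf5, an early determination factor, was more variable, with 1.03, 1.63 and 0.56 TPM on D1 and 5.50, 4.88 and 2.65 TPM on D4 (adjusted p = 0.0379, up to 0.171 with 1 library left out, above 0.05 in 4 of the 6 fits). Myog, which drives terminal differentiation, was 54.7, 61.4 and 41.1 TPM on D1 and 333.9, 173.1 and 168.9 TPM on D4 (log2 difference 2.03, SE 0.312, adjusted p = 0.00951). Myog was thus already above Pax7 on D1 on the TPM scale, which is per length. Myod1, which acts before Myog, overlapped between the days, with 43.0, 93.2 and 57.8 TPM on D1 and 169.4, 81.1 and 85.4 TPM on D4 (adjusted p = 0.271). The factor Myf6 of mature fibres was from 124.0 to 189.1 TPM on D1 and from 50.8 to 107.5 TPM on D4 and was not called (log2 difference -0.92, adjusted p = 0.119).

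Other called members of the list were surface proteins and inhibitors of division. Ncam1, an adhesion molecule of myoblasts and denervated fibres, rose from 3.95 ± 1.00 to 86.0 ± 40.8 TPM (SD, n = 3; limma adjusted p = 0.00129). Cdkn1c, an imprinted cell cycle inhibitor of differentiating myoblasts, rose from 32.3 ± 9.54 to 291.7 ± 19 TPM (SD, n = 3; limma adjusted p = 0.000959). Fgfr4, an FGF receptor of myoblasts, had a log2 difference of 2.75 (SE 0.279), and Heyl, a Notch target in satellite cells, one of 2.53 (SE 0.206). The calls of these 4 genes held without each library in turn.

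Subunits of the acetylcholine receptor, the channel that muscle uses to receive nerve signals, were among the strongest members. Chrng, the gamma subunit of the fetal receptor, was 0.78, 1.70 and 0.16 TPM on D1 and 144.2, 61.6 and 60.6 TPM on D4 (log2 difference 5.54, SE 0.436, adjusted p = 0.00123). Chrna1, the alpha subunit, was 12.5, 14.0 and 6.90 TPM on D1 and 206.6, 106.4 and 93.2 TPM on D4 (log2 difference 3.45, SE 0.372, adjusted p = 0.00286). The groups were apart by a wide margin for both. Chrne, the epsilon subunit that replaces gamma in adult muscle, was from 1.75 to 6.54 TPM on D1 and from 3.79 to 8.40 TPM on D4 and was not called (adjusted p = 0.347). Within each library, Chrng held 20.6%, 49.3% and 2.39% of the sum of Chrng and Chrne on D1 and 97.4%, 89.0% and 87.8% on D4. This share does not depend on how a library was scaled. With 3 against 3 libraries, the exact two-sided permutation test cannot give a p below 0.1, which is the value it gave here. Of the D1 libraries only replicate 2 reached 1 TPM for Chrng, which thus passed the filter on low values through the D4 libraries. The call of Chrng and the test of its share are therefore no independent support.

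The promoters of Chrng and Chrna1 are shown because both genes rose together and each holds 2 matches to CAGCTG, an E-box of the kind that MyoD-family factors bind. The 250 bases before the annotated start are given from RefSeq for GRCm38.p6, 5′ to 3′ on the strand of the gene, at chr1:87205561-87205810 on the plus strand for Chrng and chr2:73580339-73580588 on the minus strand for Chrna1. Capitals mark CAGCTG, which reads the same on both strands.
Chrng: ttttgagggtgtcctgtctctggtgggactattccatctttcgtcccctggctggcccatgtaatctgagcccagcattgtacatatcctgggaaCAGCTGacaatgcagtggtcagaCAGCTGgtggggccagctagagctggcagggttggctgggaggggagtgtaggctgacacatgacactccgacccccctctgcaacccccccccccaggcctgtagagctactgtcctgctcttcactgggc
Chrna1: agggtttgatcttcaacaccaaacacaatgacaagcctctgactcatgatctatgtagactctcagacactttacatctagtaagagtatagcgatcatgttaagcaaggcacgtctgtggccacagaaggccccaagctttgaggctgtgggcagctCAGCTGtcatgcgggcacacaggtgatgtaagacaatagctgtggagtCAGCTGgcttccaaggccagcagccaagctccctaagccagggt

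Over all 32851 promoters of the same length, 13% held this motif and 1.26% held at least 2 matches. Among the myogenic regulator genes 4 of 14 with a promoter in the table held it, among developmental sarcomere genes 3 of 15, and among mature myofibre genes, of which only Sln was called higher, 11 of 22. Over all genes the figure was 14.7%. The window of Myog held no match, and neither did those of Myl4, Myh3 and Myh8. These matches are descriptions of letters, and no binding was measured.

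Several contractile proteins of embryonic and neonatal fibres rose steeply. Of 16 tested developmental sarcomere genes, 9 were higher (7.83% of all genes were higher), 0 were lower and 7 were not called (from 4 to 9 higher with a library left out). The median log2 difference was 3.52. It was 1.65 without D4 replicate 3, a fit in which Myh3 and Myh8 were not tested. Myh3, the embryonic myosin heavy chain, was 0.37, 0.31 and 0.16 TPM on D1 and 523.2, 470.6 and 396.7 TPM on D4. Its log2 difference of 8.5 (SE 0.195, adjusted p = 5.09e-06) was the highest of any listed gene. The perinatal myosin Myh8 was 0.76, 0.62 and 0.48 TPM on D1 and 219.3, 352.3 and 275.1 TPM on D4 (log2 difference 7.43, SE 0.229, adjusted p = 2.23e-05). For both myosins the D1 libraries lay below 1 TPM and the 3 D4 libraries above 200, so that they passed the filter through the D4 libraries alone. Their calls, which are part of the 9, are thus no independent support, and neither are the fits without a D1 library. Without a D4 library both genes failed the filter on low values and were not tested, and in the 3 fits without a D1 library the adjusted p was at most 0.000244 for Myh3 and 0.000718 for Myh8.

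Embryonic light chain, troponin and actin genes were higher as well. Myl4, the embryonic and atrial myosin light chain, was 23.3, 27.1 and 12.1 TPM on D1 and 1679, 1785 and 1988 TPM on D4 (log2 difference 6.45, SE 0.305, adjusted p = 0.000165). Tnnt2, the cardiac and embryonic troponin T, rose from 5.05 ± 0.578 to 477.6 ± 196.6 TPM (SD, n = 3; limma adjusted p = 0.000165). Actc1, the cardiac actin that new fibres use, was more abundant at the start and was 680.1, 509.8 and 767.8 TPM on D1 and 2670, 3522 and 3882 TPM on D4 (log2 difference 2.36, SE 0.280, adjusted p = 0.00385). The calls of these 3 genes held without each library in turn. Members of the list that were not called included the stress-responsive Xirp1, from 77.4 to 137.1 TPM on D1 and from 13.9 to 75.4 TPM on D4, which was lower in all D4 libraries than in any D1 library.

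The slow troponins were less certain. Tnni1, the slow troponin I, was 89.9, 5.78 and 2.68 TPM on D1 and 1134, 1516 and 1202 TPM on D4 (log2 difference 6.60, SE 1.06, adjusted p = 0.0114). Tnnt1, the slow troponin T, was 212.7, 9.70 and 4.85 TPM on D1 and 677.1, 1092 and 647.9 TPM on D4, and its call (adjusted p = 0.0441) was lost under the 3 scalings. D1 replicate 1 stood apart for both genes and for Myh7, the slow myosin, which was 153.1, 1.30 and 0.33 TPM on D1 and 3.12, 423.4 and 93.0 TPM on D4. The libraries of each day thus differed in slow fibre transcripts, and the part of that difference in the slow troponins was not tested.

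Transcripts of mature fibres showed no comparable change. Of 30 tested mature myofibre genes, 1 was higher and 0 were lower (7.83% and 1.31% of all genes), and the median log2 difference was -0.46. The called gene was Sln, sarcolipin, an inhibitor of the calcium pump, which was 6.11, 2.81 and 3.35 TPM on D1 and 77.4, 144.7 and 59.9 TPM on D4 (log2 difference 4.18, SE 0.381, adjusted p = 0.0016). Myh4, the myosin of the fastest fibres, was 3734, 3628 and 8468 TPM on D1 and 1564, 2631 and 2448 TPM on D4, and Acta1, the adult skeletal actin, was 31687, 22706 and 42336 TPM on D1 and 13697, 28614 and 28473 TPM on D4. Myh4 was lower in every D4 library than in any D1 library, whereas Acta1 overlapped, and neither was called (adjusted p = 0.144 and 0.629). Without overlap, 8 of the 30 genes were lower on D4, against 7.64% of all tested genes.

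As a measure that does not depend on library scaling, the share of Myh3 and Myh8 in the sum of 6 skeletal myosin heavy chains was computed from TPM. It was 0.0244%, 0.0238% and 0.00753% on D1 and 29.9%, 17.7% and 14.1% on D4 (20.6% ± 8.28, SD, n = 3). Myh4 held 91.2% ± 9.58 on D1 and 57.1% ± 5.76 on D4 (SD, n = 3). For Actc1 in the sum of Actc1 and Acta1, the share was 2.03% ± 0.219 on D1 and 13.1% ± 2.82 on D4 (SD, n = 3). None of these shares overlapped between the days, and each gave the smallest p that the exact permutation test allows, 0.1. For Myh3 and Myh8, which passed the filter through the D4 libraries alone, the share restates their levels. Its lack of overlap and its p are thus no independent support. Myosin heavy chain genes are similar in sequence, and reads may have been divided among them by the authors' counting.

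**Figure D2:**
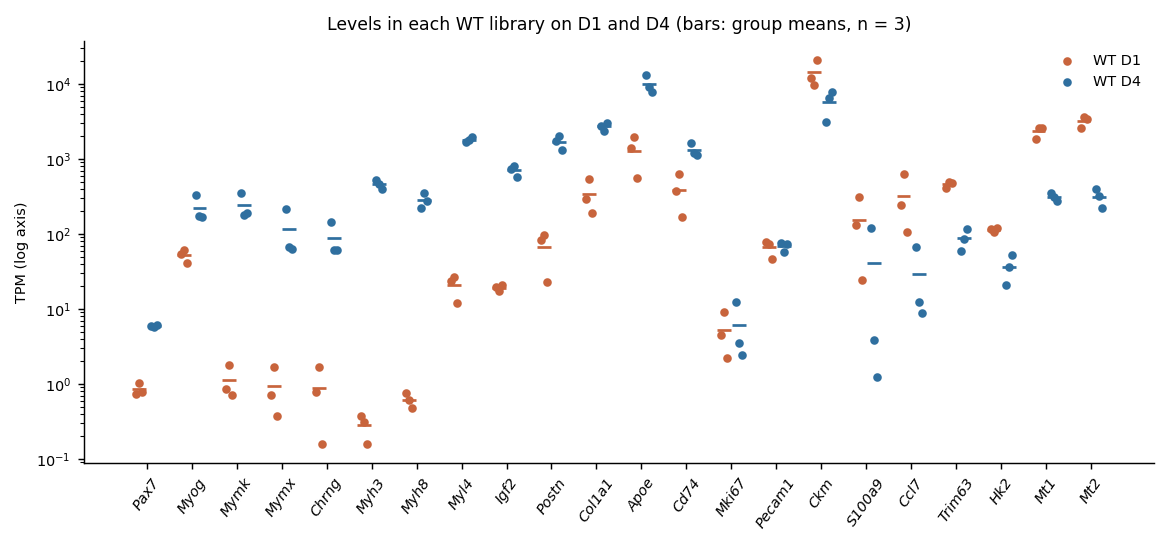
TPM of 22 genes (log axis) in each of the 3 WT libraries on D1 (orange) and D4 (blue), with group means as bars. The groups do not overlap for genes of fusion, embryonic fibres and matrix or for Mt1 and Mt2, whereas they overlap for Mki67, Pecam1 and S100a9.

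Matrix genes formed the largest block of called list members. Of 32 tested collagen and matrix genes, 22 were higher (7.83% of all genes were higher) and 0 lower on D4, with a median log2 difference of 2.21. Between 16 and 24 were higher with each library left out. Postn, periostin, a matrix protein of wounds, was 82.4, 97.6 and 22.8 TPM on D1 and 1728, 2037 and 1331 TPM on D4 (log2 difference 4.85, SE 0.524, adjusted p = 0.00286). Col1a1, a chain of fibrillar collagen I, was 297.1, 549.8 and 193.6 TPM on D1 and 2787, 2338 and 3039 TPM on D4 (log2 difference 3.09, SE 0.388, adjusted p = 0.0047). Col3a1, of collagen III, was 517.7, 652.2 and 389.1 TPM on D1 and 3053, 3126 and 3331 TPM on D4 (log2 difference 2.64, SE 0.267, adjusted p = 0.00232). In each case the lowest D4 library was several times the highest D1 library. Collagen VI chains rose as well, with log2 differences of 2.22 (SE 0.233) for Col6a1, 2.19 (SE 0.231) for Col6a2 and 1.85 (SE 0.230) for Col6a3. Tnc, tenascin C, was 38.2, 44.9 and 6.15 TPM on D1 and 257.9, 129.0 and 189.8 TPM on D4, and its call (adjusted p = 0.0387) held without D1 replicate 2 or 3 and had an adjusted p up to 0.116 without any of the others. The basement membrane chains Col4a1 and Col4a2 were not called (log2 differences 0.31 and 0.37), and Ccn2, a matricellular growth factor, had the lowest value of the list (log2 difference -0.95, SE 0.673).

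Most FAP genes had a positive difference (18 of 21, against 65% of all genes), and a part of them was called. Of 21 tested, 7 were higher (7.83% of all genes were higher) and 0 lower, with a median of 0.76, and from 2 to 8 were higher with a library left out. The calls of Sfrp4 and Cd248 held in each of these fits. The called genes were the Wnt antagonists Sfrp4 and Sfrp1, the stromal surface protein Cd248, the matrix components Mfap5, Fbn1 and Lum, and the surface protease Fap. Sfrp4 was 4.89, 4.33 and 2.79 TPM on D1 and 44.5, 37.9 and 71.1 TPM on D4 (log2 difference 3.36, SE 0.299, adjusted p = 0.00147). In contrast, Pdgfra, the receptor by which FAPs are defined, was 19.9, 32.5 and 12.2 TPM on D1 and 31.5, 28.1 and 30.9 TPM on D4 (log2 difference 0.57, SE 0.333, adjusted p = 0.349). Ly6a, another marker of FAPs, was from 285.8 to 532.8 TPM on D1 and from 266.3 to 439.8 TPM on D4 (log2 difference -0.25, SE 0.307, adjusted p = 0.675). The called genes are thus largely secreted or matrix products, with the surface proteins Cd248 and Fap, whereas Pdgfra and Ly6a overlapped between the days.

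Among 18 tested matrix proteases and inhibitors, 6 were higher and 1 was lower (7.83% of all genes were higher and 1.31% lower). Mmp14, a membrane-bound collagenase, was 51.9, 73.2 and 27.4 TPM on D1 and 357.2, 320.0 and 310.6 TPM on D4 (log2 difference 2.78, SE 0.344, adjusted p = 0.00442), and its substrate Mmp2 had a log2 difference of 2.09 (SE 0.244, adjusted p = 0.00369). The protease inhibitor Serpina3n moved the other way, from 72.7, 95.8 and 108.2 TPM on D1 to 29.4, 16.4 and 16.5 TPM on D4 (log2 difference -2.13, SE 0.282, adjusted p = 0.0056). In the pericyte and smooth muscle list, 3 of 10 genes were higher, led by Acta2, the smooth muscle actin of activated fibroblasts, pericytes and new myotubes, with 125.8, 117.2 and 131.7 TPM on D1 and 831.8, 402.4 and 515.6 TPM on D4 (adjusted p = 0.00566). No endothelial gene was called (0 of 22), and Pecam1, the endothelial adhesion molecule, was from 46.2 to 78.4 TPM on D1 and from 58.2 to 75.1 TPM on D4.

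Growth factors included some of the steepest rises. Of 24 tested genes of growth factors and the IGF axis, 9 were higher (7.83% of all genes) and 0 lower, with a median of 0.63. With a library left out from 5 to 10 were higher and the median was from 0.32 to 0.77, and 1 gene was lower under each scaling. Igf2, an imprinted growth factor that acts in myoblast differentiation, was 19.6, 17.4 and 20.7 TPM on D1 and 735.4, 802.2 and 583.1 TPM on D4 (log2 difference 5.12, SE 0.198, adjusted p = 7.69e-05). H19, the non-coding RNA of the same imprinted locus, was 1070, 562.3 and 706.4 TPM on D1 and 5159, 7384 and 5729 TPM on D4 (log2 difference 3.00, SE 0.328, adjusted p = 0.00287). Each gene rose in all D4 libraries beyond the D1 range, and by a larger factor for Igf2. Igf1, the related factor made by macrophages and muscle, rose less, from 16.7 ± 3.66 to 42.1 ± 8.63 TPM (SD, n = 3; limma adjusted p = 0.0192, up to 0.103 without D1 replicate 1, D4 replicate 1 or D4 replicate 2). Dlk1, an imprinted Notch-related regulator, had a log2 difference of 2.95 (SE 0.467, adjusted p = 0.0107) and Tgfb3, a transforming growth factor, one of 2.29 (SE 0.168, adjusted p = 0.000959). Mstn, myostatin, the inhibitor of muscle growth, was 11.5, 8.10 and 48.4 TPM on D1 and 3.82, 3.87 and 2.64 TPM on D4, and was not called (log2 difference -2.01, SE 0.591, adjusted p = 0.0818). In the Notch pathway, Heyl, Hes1 and the ligand Dll1 were higher (3 of 13, against 7.83% of all genes, with 0 lower), and none of the receptors Notch1 to Notch4 was called.

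Among all called genes of at least 10 TPM that held in each fit with 1 library left out, 6 of the 15 with the largest rises were in none of the lists. C1qtnf3, a secreted relative of adiponectin, was 4.12, 5.70 and 2.68 TPM on D1 and 230.7, 431.0 and 358.8 TPM on D4 (log2 difference 6.04, SE 0.314, adjusted p = 0.000201). Mest, an imprinted gene of mesoderm, had a log2 difference of 5.01 (SE 0.248), Cthrc1, a secreted protein of collagen-producing fibroblasts, one of 4.98 (SE 0.409), and Tceal3 one of 4.62 (SE 0.247). Casq2, the cardiac and slow form of the calcium store protein calsequestrin, had a value of 4.26 (SE 0.448) and Ccn3, a matricellular protein, one of 4.14 (SE 0.229). By TPM, the largest increases among called genes were those of Apoe (8838 TPM), H19 (5311 TPM) and Tmsb10, an actin-binding thymosin (3650 TPM).

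Calls in the leukocyte lists were few in number, which does not mean that these lists changed less than genes in general. Of 18 tested neutrophil genes, 0 were higher and 1 was lower (1.31% of all genes were lower), with a median log2 difference of -1.21, which was -0.56 without D1 replicate 2 and -1.90 without D4 replicate 1. The called gene was Lcn2, the iron-sequestering protein of neutrophils and inflamed tissue, with 64.4, 57.2 and 154.7 TPM on D1 and 19.6, 1.33 and 1.61 TPM on D4 (log2 difference -4.07, SE 0.839, adjusted p = 0.0273). S100a9, an abundant neutrophil protein, was 132.1, 307.4 and 24.7 TPM on D1 and 119.6, 3.84 and 1.26 TPM on D4 (adjusted p = 0.252). D4 replicate 1 stood near the D1 libraries for S100a9, whereas the other D4 libraries lay far below all of them. The call of Lcn2 was lost without D1 replicate 1 or 3 or D4 replicate 2 or 3 (limma adjusted p up to 0.11). The neutrophil genes held 11.8%, 13.9% and 22% of the summed TPM of neutrophil and pan macrophage genes on D1 and 6.29%, 1.62% and 1.83% on D4, without overlap. Their own summed TPM did overlap, with 492.5, 946.8 and 379.2 on D1 and 663.1, 101.6 and 82.9 on D4.

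Ccl7, a monocyte-attracting chemokine, fell. It was 240.8, 625.6 and 104.9 TPM on D1 and 66.6, 12.4 and 8.93 TPM on D4 (log2 difference -3.60, SE 0.851, adjusted p = 0.0424). Ccl2, its neighbour and the main ligand of the monocyte receptor CCR2, was 335.8, 743.0 and 106.0 TPM on D1 and 103.9, 14.0 and 8.97 TPM on D4, and narrowly missed the threshold (log2 difference -3.58, SE 0.989, adjusted p = 0.0684). Both genes were lower in every D4 library than in any D1 library, by little in D4 replicate 1, and the call of Ccl7 was lost without D1 replicate 1 or 2 or D4 replicate 2 or 3 (limma adjusted p up to 0.166). Of 30 tested cytokine and chemokine genes, 2 were higher and 2 lower (Ccl7 and Cxcl14), with a median of -0.39. Over all genes 7.83% were higher and 1.31% lower. Il1b (3.21 to 23.0 TPM on D1 and 5.98 to 28.2 TPM on D4) and Il6 (0.18 to 2.62 and 0.17 to 1.99 TPM) overlapped between the days. The higher genes were Cxcl16, a membrane-bound chemokine of macrophages, and the interferon-induced Cxcl9, and their calls held in 1 of the 6 fits with 1 library left out.

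In the recruited monocyte, pan macrophage and lipid-associated macrophage lists, 1 of 12, 2 of 18 and 2 of 17 genes were called higher. Of these lists only that of recruited monocytes had a lower gene, with 1 (7.83% of all genes were higher and 1.31% lower). Among 12 recruited monocyte genes, Chil3, a chitinase-like protein of monocytes, was lower (68.7, 117.2 and 17.2 TPM on D1 and 8.19, 4.00 and 1.61 TPM on D4, adjusted p = 0.0299), while Fn1, fibronectin, which fibroblasts also make, was higher (260.6, 406.6 and 93.9 TPM on D1 and 1134, 1303 and 1345 TPM on D4, adjusted p = 0.0226). The call of Chil3 was lost without D1 replicate 1 or 2 or D4 replicate 2 or 3, and that of Fn1 without D1 replicate 1 or any D4 library (limma adjusted p up to 0.12 and 0.101). Ccr2, the monocyte chemokine receptor, was from 8.82 to 62.3 TPM on D1 and from 8.59 to 33.8 TPM on D4. Of 18 pan macrophage genes, 2 were higher, C1qa and C1qc, both subunits of complement C1q, and the median was 0.82, ranging from 0.18 without D1 replicate 3 to 1.32 without D1 replicate 2. C1qa was 150.0, 238.2 and 93.9 TPM on D1 and 869.9, 502.9 and 405.1 TPM on D4 (log2 difference 1.90, SE 0.411, adjusted p = 0.0315), a call that held only without D1 replicate 2 (adjusted p up to 0.117 in the other 5 fits). Cd68, a lysosomal marker of all macrophages, was from 129.2 to 479.4 TPM on D1 and from 162.0 to 381.1 TPM on D4 and overlapped. Apoe, the lipid carrier that macrophages secrete, was 1387, 1951 and 561.4 TPM on D1 and 13239, 9259 and 7915 TPM on D4 (log2 difference 3.10, SE 0.498, adjusted p = 0.0113, up to 0.0597 without D1 replicate 1 or D4 replicate 2). Together with Ctsk, a collagen-degrading protease (log2 difference 2.54, SE 0.298, adjusted p = 0.00369), Apoe made up the called genes of 17 in the lipid-associated macrophage list, whose median of 0.34 was between -0.04 and 0.17 under the 3 scalings. Its other markers Trem2, Gpnmb and Spp1 were not called (adjusted p = 0.256, 0.471 and 0.749).

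Markers of tissue-resident macrophages (TRMs) differed from each other. Lyve1, a hyaluronan receptor that marks TRMs and lymphatic vessels, was 15.8, 10.8 and 19 TPM on D1 and 5.77, 2.79 and 5.85 TPM on D4 (log2 difference -1.50, SE 0.324, adjusted p = 0.0317), a fall in all D4 libraries. Cd163, a haemoglobin scavenger receptor, was from 9.86 to 14.3 TPM on D1 and from 8.10 to 16.4 TPM on D4, and Folr2, a folate receptor, was from 38.4 to 95.8 TPM on D1 and from 70.7 to 173.9 TPM on D4. Neither was called (adjusted p = 0.917 and 0.258). Of 16 tested genes of the list, 4 were higher (Retnla, C4b, Fcna and Gas6) and 1 was lower (Lyve1), against 7.83% and 1.31% of all genes. The calls of Retnla, C4b and Fcna were lost under each of the 3 scalings, that of Gas6 with median-of-ratios scaling and without D1 replicate 1 or any D4 library, and that of Lyve1 in 5 of the 6 fits with 1 library left out (limma adjusted p up to 0.13), the exception being the fit without D1 replicate 2.

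Of the antigen presentation genes, H2-Aa and Cd74 rose and the others were not called. All 12 tested MHC class II and dendritic cell genes had a positive difference, with a median of 1.28, and 2 were called. Over all genes 65% had a positive difference and 7.83% were called higher. H2-Aa, a class II chain, was 138.9, 255.3 and 62.4 TPM on D1 and 729.9, 524.6 and 457.9 TPM on D4 (log2 difference 2.09, SE 0.485, adjusted p = 0.0402). Cd74, the invariant chain that loads class II, was 370.9, 630.8 and 171.3 TPM on D1 and 1643, 1201 and 1149 TPM on D4 (log2 difference 1.94, SE 0.460, adjusted p = 0.0432). H2-Ab1, the partner chain of H2-Aa, was also higher in every D4 library and was not called (adjusted p = 0.066). Only the fit without D1 replicate 2 kept both calls, and with other libraries left out the limma adjusted p was up to 0.136 for H2-Aa and 0.144 for Cd74. T cell genes were near the detection threshold, and 7 of 18 were tested. Cd4, which T helper cells and some mouse monocytes and macrophages express, was from 0.37 to 0.85 TPM on D1 and from 3.08 to 9.28 TPM on D4 (adjusted p = 0.0186), whereas Cd3e, the defining T cell chain, was from 0.30 to 0.79 TPM and from 0.69 to 1.59 TPM and not tested. Cd4 passed the filter on low values through the D4 libraries alone, so its call is no independent support. Without a D4 library it failed that filter and was not tested.

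**Figure D3:**
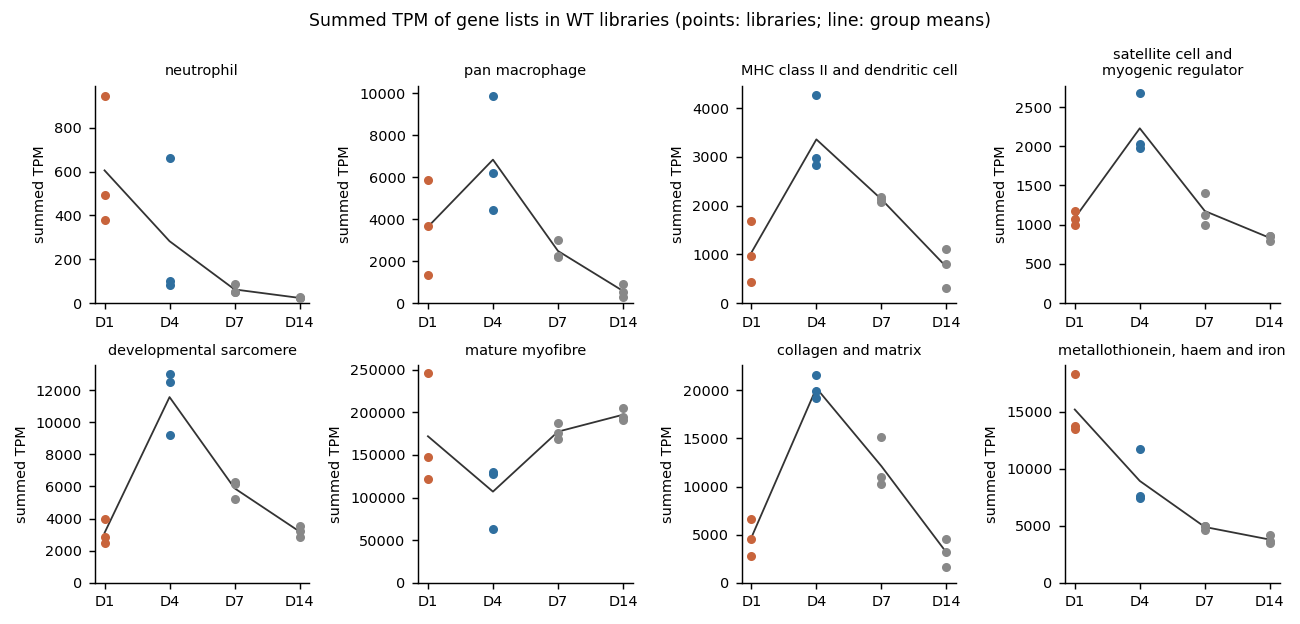
Summed TPM of 8 gene lists in each WT library (points) and group means (line) on D1 (orange), D4 (blue), D7 and D14 (grey). Matrix, developmental sarcomere and MHC class II sums are highest on D4, and the neutrophil and metallothionein sums have their highest group means on D1.

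The genes that fell were led by the metallothioneins Mt1 and Mt2, small cysteine-rich proteins that bind zinc and copper and respond to metal, glucocorticoid and stress. Mt2 was 2630, 3611 and 3445 TPM on D1 and 403.7, 316.9 and 219.3 TPM on D4 (log2 difference -3.39, SE 0.297, adjusted p = 0.00147). Mt1 was 1866, 2585 and 2574 TPM on D1 and 357.5, 315.0 and 273.1 TPM on D4 (log2 difference -2.88, SE 0.244, adjusted p = 0.00129). The D4 libraries lay far below every D1 library for both genes, and both calls held without each library and under each scaling. Mt3, another member of the cluster, best known from brain and not in the list, was 253.8, 517.3 and 224.9 TPM on D1 and 24.6, 62.9 and 99.3 TPM on D4 (adjusted p = 0.0302, up to 0.106 without D1 replicate 1, D1 replicate 2 or D4 replicate 2). Of 14 tested genes of metallothionein, haem and iron handling, the other called members were Trf, transferrin (log2 difference 2.27, SE 0.295, adjusted p = 0.00512), and Slc40a1, the iron exporter ferroportin (log2 difference 1.44, SE 0.238, adjusted p = 0.0125), both higher. Over all genes 7.83% were higher and 1.31% lower. Hmox1, haem oxygenase, was from 60.6 to 237.1 TPM on D1 and from 61.8 to 301.0 TPM on D4.

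The promoters of Mt1 and Mt2 are shown because these neighbouring genes fell together and metallothionein promoters are known for metal response elements. The 250 bases before the start were taken from RefSeq for GRCm38.p6, 5′ to 3′ on the plus strand, at chr8:94178839-94179088 for Mt1 and chr8:94172368-94172617 for Mt2. Capitals mark TGCACNC or TGCGCNC, the core of the element, on either strand.
Mt1: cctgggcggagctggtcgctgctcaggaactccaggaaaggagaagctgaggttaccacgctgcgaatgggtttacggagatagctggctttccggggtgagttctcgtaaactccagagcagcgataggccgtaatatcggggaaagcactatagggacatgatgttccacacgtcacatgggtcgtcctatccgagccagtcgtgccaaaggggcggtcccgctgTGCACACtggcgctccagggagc
Mt2: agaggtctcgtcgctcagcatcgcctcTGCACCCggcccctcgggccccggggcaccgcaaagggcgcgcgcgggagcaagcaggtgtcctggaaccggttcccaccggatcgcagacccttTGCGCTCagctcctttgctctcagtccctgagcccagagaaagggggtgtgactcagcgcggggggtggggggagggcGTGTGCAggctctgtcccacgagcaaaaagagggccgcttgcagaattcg

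In these windows Mt1 held 1 match, Mt2 held 3 and Mt3 held none, and 21.4% of the 32851 promoters of the same length held at least 1 match. Bases outside these windows were not searched. No metal was measured, and a match is a description of letters only.

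Both main ubiquitin ligases of muscle protein breakdown fell. Of 12 tested atrophy and FoxO genes, 0 were higher, 4 were lower (1.31% of all genes were lower) and 8 were not called, with a median of -0.72 (-0.23 without D4 replicate 1). Trim63, the ubiquitin ligase MuRF1, was 408.7, 492.4 and 482.3 TPM on D1 and 60, 85.8 and 116.7 TPM on D4 (log2 difference -2.43, SE 0.269, adjusted p = 0.00302). Fbxo32, the ligase atrogin-1, was 47.0, 32.7 and 72.1 TPM on D1 and 4.39, 8.72 and 11.1 TPM on D4 (log2 difference -2.51, SE 0.389, adjusted p = 0.0098, up to 0.0533 without D1 replicate 1 or D4 replicate 2). The autophagy adaptor Sqstm1 fell from 823.2 ± 184.0 to 289.1 ± 58.9 TPM (SD, n = 3; limma adjusted p = 0.0148), and Eda2r, a receptor linked to wasting, was the fourth. Only the call of Trim63 held without each library in turn, and the number of lower genes was from 1 to 5 in these fits. Foxo1 and Foxo3, the factors that drive both ligases, were not called (adjusted p = 0.851 and 0.245).

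Stress and hypoxia genes fell in part. The hypoxia list had 1 higher and 3 lower genes of 16 (7.83% of all genes were higher and 1.31% lower). Hk2, a hexokinase, was 115.7, 108.1 and 120.6 TPM on D1 and 20.9, 35.9 and 52.3 TPM on D4 (log2 difference -1.72, SE 0.319, adjusted p = 0.0188). Pfkfb4, a regulator of glycolysis, was 45.4, 54.2 and 58.2 TPM on D1 and 22.2, 20.5 and 20.8 TPM on D4 (adjusted p = 0.0072), and Egln3, an oxygen sensor, fell as well (adjusted p = 0.0172), whereas P4ha2, a collagen prolyl hydroxylase, rose (adjusted p = 0.0143). None of these 4 calls held in all 6 fits with a library left out: each was lost without D4 replicate 2, Hk2, Egln3 and P4ha2 also without D1 replicate 1, and Egln3 and P4ha2 also without D4 replicate 3 (limma adjusted p up to 0.0982). Vegfa, the angiogenic factor, overlapped between the days. Of 16 heat shock and chaperone genes, Hspa1b and Hsph1 were lower and 0 were higher, and the call of Hsph1 (adjusted p = 0.0496) was lost without any 1 library. Cryab, the small heat shock protein of muscle, was 4898, 4599 and 3824 TPM on D1 and 453.6, 1442 and 2822 TPM on D4, lower in every D4 library but spread widely (adjusted p = 0.116). Of 19 ATF4 stress response genes, Atf5 was lower and Fgf21, a hormone that stressed muscle secretes, was higher. Fgf21 was listed at 0 in the 3 D1 libraries and at 5.70, 3.37 and 5.71 TPM in the D4 libraries, and since it passed the filter through the D4 libraries alone, its call is no independent support. The call of Atf5 held only without D1 replicate 3 (limma adjusted p up to 0.17 otherwise).

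Few other genes met the rule for the largest falls, which left 13 genes. An entry of 105 bases with the symbol Ddit3 was 178.7, 213.7 and 95.4 TPM on D1 and 7.13, 0 and 0 TPM on D4 (log2 difference -6.27, SE 0.804). It is uncertain, since the longer Ddit3 entry, of the stress factor CHOP, was only from 28.9 to 59.3 TPM on D1 and from 19.6 to 23.0 TPM on D4 (adjusted p = 0.17), and reads may have been split between both. The mitochondrial ribosomal RNAs mt-Rnr1 and mt-Rnr2 were lower, at 778.9 ± 202.8 and 565.2 ± 120.1 TPM on D1 and 196.7 ± 18.4 and 98.8 ± 18.7 TPM on D4 (SD, n = 3). The labels name a SMARTER mRNA kit and do not otherwise say how ribosomal RNA was kept out. Mylk4, a kinase of muscle, fell from 118.9 ± 51.3 to 19.7 ± 2.99 TPM and Nqo1, an oxidative stress enzyme, from 27 ± 3.54 to 6.17 ± 1.25 TPM (SD, n = 3). Tsc22d3, a target of glucocorticoids, was 218.4, 248.6 and 321.7 TPM on D1 and 86.1, 109.7 and 80.8 TPM on D4 (log2 difference -1.50, SE 0.226, adjusted p = 0.00881). Stk40 and Eif3j2 met the rule as well, of which the latter has a near-identical copy that may share its reads. By TPM, Mustn1, a muscle protein induced by injury, had the largest fall after Mt1 and Mt2, from 1358, 2092 and 1253 TPM to 206.2, 304.3 and 501.4 TPM (adjusted p = 0.0124, up to 0.0726 without D1 replicate 1 or D4 replicate 2).

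Genes of dividing cells were not called between D1 and D4, which does not mean that they were absent. The summed TPM of the mitosis genes was from 116.9 to 517.4 on D1 and from 222.7 to 715.6 on D4. In WT control muscle it was from 20.2 to 23.7, a comparison that was not tested. None of 31 tested DNA replication genes and none of 30 mitosis genes was called by limma, against 9.13% of all genes. Of either list, 0 genes were free of overlap between the days, against 30.4% of all tested genes. Mki67, a marker of cycling cells, was 4.53, 9.08 and 2.22 TPM on D1 and 12.6, 3.58 and 2.42 TPM on D4 (log2 difference 0.08, SE 0.597, adjusted p = 0.951), and Top2a, the mitotic topoisomerase, was 16.8, 34.7 and 7.67 TPM on D1 and 38.4, 13.2 and 8.78 TPM on D4. Mki67 spread widely within each day, with D1 replicate 2 and D4 replicate 1 highest, the libraries with the most macrophage transcripts. The cell cycle inhibitors Cdkn1a and Cdkn2a had log2 differences of 1.21 and 2.10 and were not called (adjusted p = 0.114 and 0.0576).

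Metabolic and other lists had few calls (7.83% of all genes were higher and 1.31% lower). The 13 mitochondrially encoded genes and the 23 ribosome biogenesis genes all had negative differences, with medians of -0.67 and -0.47, and 0 of either were called as deposited. Under the 3 scalings from 2 to 6 ribosome biogenesis genes were lower, and 5 were in the fit of all 24 libraries. Of 73 nuclear genes of the respiratory chain, 0 were called, and the median of 0.26 was 0.02 to 0.03 under the 3 scalings. No gene was called among 24 of fatty acid oxidation, 21 of cholesterol synthesis, 18 stimulated by interferon, 10 of Schwann cells and nerve, 5 of erythrocytes, 2 of B cells and 2 of acinar pancreas. The glycolysis and glycogen list had 1 lower gene of 24 (Hk2), the lysosome list 1 higher of 28 (Glb1), the adipocyte list 1 lower of 12 (Plin4), the immediate early list 1 higher of 21 (Egr3) and the keratinocyte list 1 higher of 2 (Krt10). Defining markers of skin were at or near 0 (Krt5 and Krt14 at most 0.03 TPM). Among 16 complement genes 4 were higher, C4b, C2, C1s1 and Serping1, and 1 was lower, C7. None of these calls held in all 6 fits with a library left out (from 0 to 3 higher), that of C7 held in none of them, and those of C4b and Serping1 were lost under each scaling. Of 15 plasma membrane repair genes, Cav3, the caveolin of muscle, was higher (114.3 ± 10.6 to 227.1 ± 9.05 TPM, SD, n = 3) and Dysf, dysferlin, was lower (46.0 ± 4.94 to 24.9 ± 2.11 TPM, SD, n = 3). Both calls were lost without D1 replicate 1 or any D4 library, that of Dysf also without D1 replicate 3 (limma adjusted p up to 0.101 and 0.177), and that of Cav3 with median-of-ratios scaling. Gsdme, the gene the series targets, was 2.76, 4.85 and 3.16 TPM on D1 and 3.02, 2.67 and 2.63 TPM on D4 (log2 difference -0.26, SE 0.238, adjusted p = 0.566), and 0 of 14 gasdermin and pyroptosis genes were called.

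**Figure D4:**
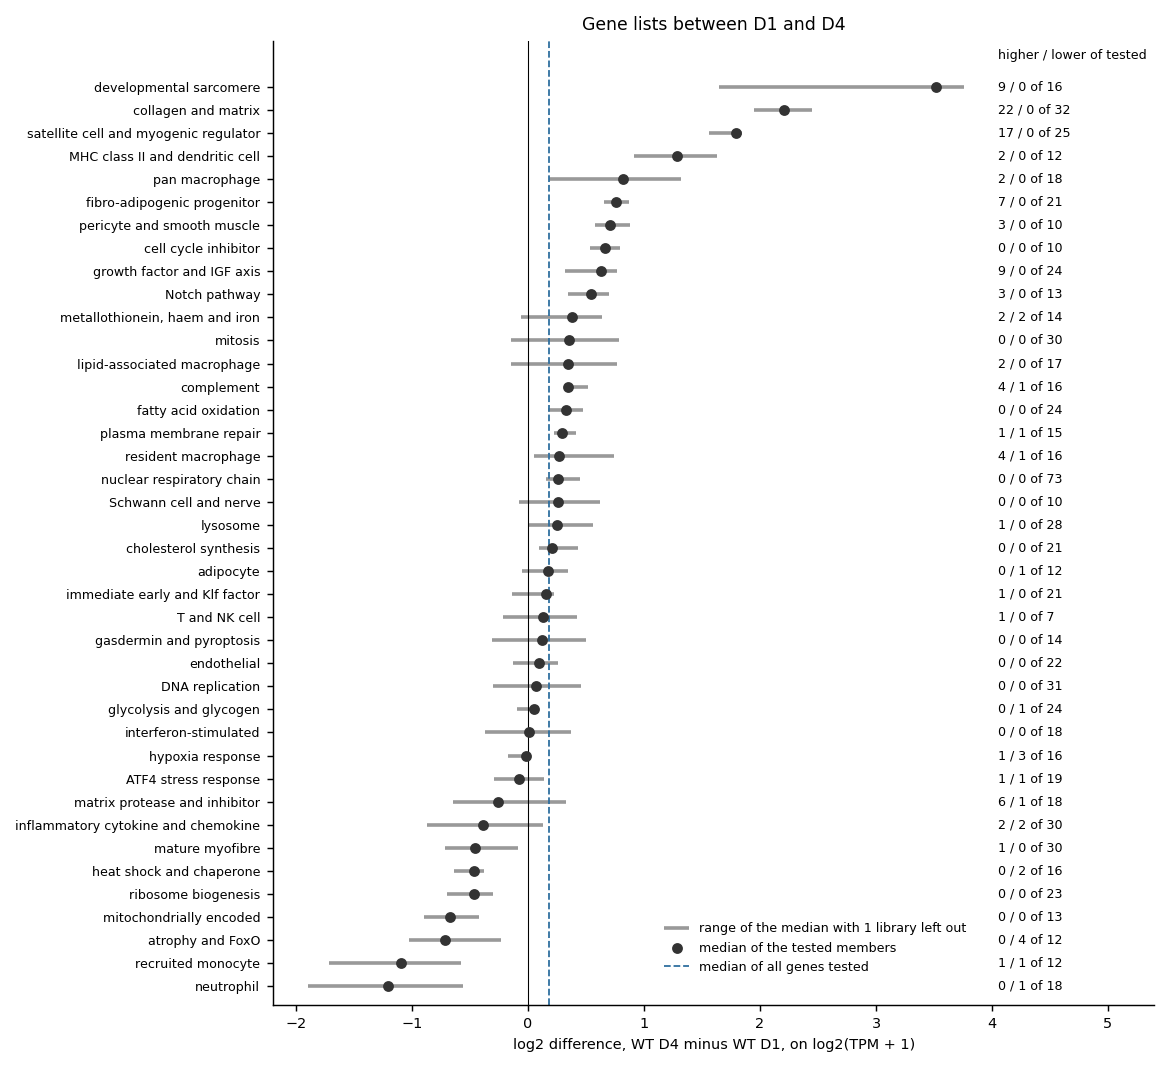
Median log2 difference (x axis) of the tested members of each list with at least 7 tested genes, with the range of the median over 6 fits without 1 library (grey) and the median of all genes, 0.18 (dashed). Numbers on the right give genes called higher and lower of those tested. Developmental sarcomere (3.52), matrix (2.21) and myogenic regulators (1.79) lie highest and the neutrophil list (-1.21) lies lowest.

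Levels on D7 and D14 put the step in context, and are given without a test because they would share the D4 libraries. Mymk, at 240.7 ± 97.9 TPM on D4, was 27.2 TPM on D7 and 1.51 TPM on D14 on average. Myh3, at 463.5 ± 63.5 TPM on D4, was 95.5 and 1.62 TPM, and Igf2, at 706.9 ± 112.3 TPM on D4, was 284.3 and 19.7 TPM (SD, n = 3). Col1a1 was 1403 TPM on D7 and 274.8 TPM on D14, below its D1 mean of 346.8 TPM. Of the falling genes, Mt2 went on to 81.7 and 40.9 TPM, whereas Mylk4 was back at 60.6 and 258.7 TPM and mt-Rnr2 at 532.2 and 944.5 TPM.

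The same step in KO mice was fitted with the WT step in 12 libraries and 15029 genes, and the difference of the steps was tested. No gene was called (0%), the lowest adjusted p was 0.411, and 1376 genes had an unadjusted p under 0.05. A missed threshold does not show that the steps were alike, since KO D4 replicate 2 stood apart: it had 12961 genes with at least 1 TPM (14380 and 13960 in the other KO D4 libraries), and Myh3 and Myh8 held 0.152% of its myosin heavy chains against 12.5% and 8.07%. Mymk was 140.0, 6.05 and 169.4 TPM in KO D4 replicates 1, 2 and 3, and Postn was 1966, 41.6 and 1112 TPM. Without that library 0 genes were called as well (658 at an unadjusted p under 0.05).

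In this fit, 1239 genes were higher and 366 lower in WT (8.24% and 2.44%), and 279 were higher and 314 lower in KO (1.86% and 2.09%). Both steps shared 200 higher genes, which are 16.1% of the WT and 71.7% of the KO calls, and 126 lower genes, which are 34.4% and 40.1%. No gene was called in opposite directions. Of the 1109 genes called higher in the WT libraries alone, 1077 had a positive difference in KO, against 38.3% of all genes, and of the 185 lower genes 176 had a negative one. Mt2 was 2555, 2712 and 3192 TPM on D1 and 273.8, 98.1 and 267.0 TPM on D4 in KO, a log2 difference of -3.86 (SE 0.376), and the steps differed by 0.46 (WT minus KO, SE 0.531, adjusted p = 0.593). Retnla, a secreted product of alternatively activated macrophages, was 14.2 TPM on D1 and 273.2 TPM on D4 in KO on average and 23.6 and 85.4 TPM in WT, a difference of the steps of -2.29 (SE 0.622, unadjusted p = 0.00362, adjusted p = 0.411).

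List medians differed between the steps in both directions. The pan macrophage median was 0.82 in WT and -1.31 in KO, or -0.24 without KO D4 replicate 2, and the median difference of the steps was 1.88, or 0.96 without that library. For the mitosis list the medians were 0.35 and -1.18 (-0.61 without it), and for the neutrophil list -1.21 and -2.99 (-2.82 without it). The matrix list had 2.21 and 1.07 (1.67 without it) and the developmental sarcomere list 3.52 and 2.32 (2.35 without it). Other lists had the higher median in KO, among them mature myofibre (-0.46 in WT and 0.41 in KO, or 0.24 without KO D4 replicate 2), FAP (0.76 and 1.01, or 1.21 without it), complement (0.34 and 0.69, or 0.90 without it) and atrophy (-0.72 and -0.06, or -0.10 without it). The median gene-wise difference of the steps (WT minus KO) was 0.12 for FAP and -0.10 for complement. Without KO D4 replicate 2 it was -0.05 and -0.12. For mature myofibre it was -0.99 and for atrophy -0.31 (-0.84 and -0.42 without that library). For FAP the order of WT and KO thus depended on the measure. These are descriptions beside a median of all genes of 0.18 in WT and -0.16 in KO.

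**Figure D5:**
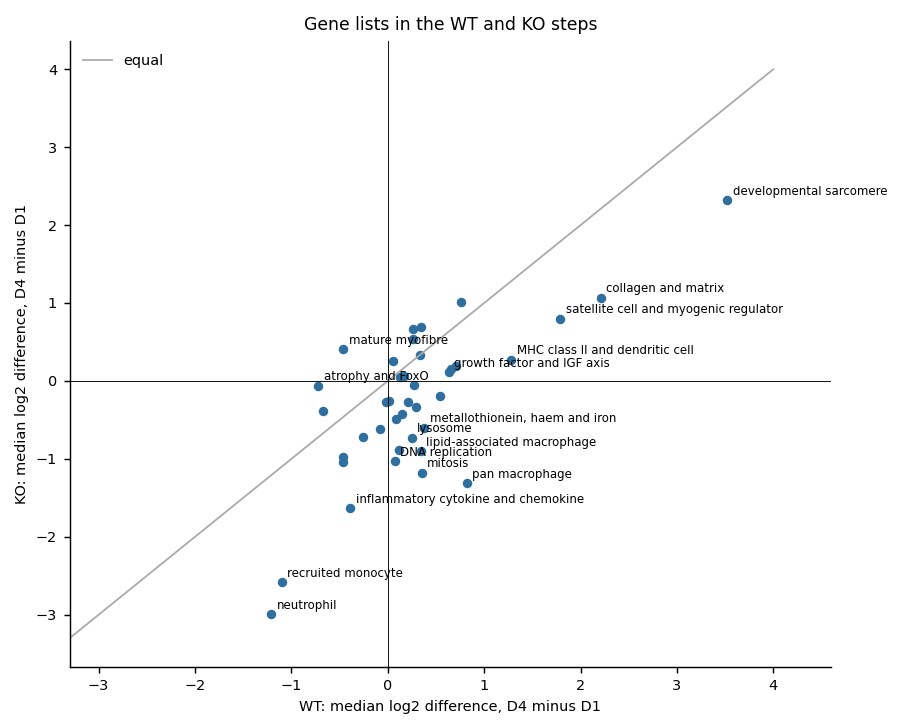
Median log2 difference between D4 and D1 of each gene list in WT (x axis) and KO (y axis) libraries, from the fit of 12 libraries, with the line of equal values. Among lists with at least 7 tested genes the developmental sarcomere list is highest in both (3.52 and 2.32) and the neutrophil list lowest in both (-1.21 and -2.99).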

How the data were processed

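Per the labels, RNA-seq libraries of total RNA were prepared with a SMARTER mRNA kit and read as pairs on an Illumina instrument. The authors deposited TPM values, here 55852 entries for the 24 injured libraries. The processing notes name mm10, and the aligner and counting tool are not given in the sources used here. TPM are shares of a library, and neither strand use nor the handling of shared reads was stated. TPM carries no read number, so no counting interval was computed. Groups came from sample titles. Genes with at least 1 TPM in at least 3 of the 6 WT D1 and D4 libraries were tested as log2(TPM + 1) with limma 3.58.1 (R 4.3.3), 2 group means, a variance trend and Benjamini-Hochberg adjustment over all tested genes. Differences on this scale understate the change of low genes. Replicates correlated at r of 0.931 to 0.977 across genes, and at most 0.187% of values were identical. The difference of the WT and KO steps was fitted in 12 libraries. The scripts were tested on simulated data.

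Members and the 44 gene lists (861 of 863 symbols matched) were chosen with earlier results of these data known. Of 2 entries with 1 symbol, the longer was used. Genes were named by rule: the first 4 of each list, each list's highest and lowest difference, up to 15 rises and 15 falls among called genes of at least 10 TPM without overlap that held without each library (clone and assembled names left out), the 10 largest changes in TPM each way, and Gsdme. A gene that met the rule is not reported here. Other called list members, Chrne, Myh7, Col4a1 and Col4a2 among them, were chosen after their values were seen. Alternatives were 3 scalings, another pseudocount, other filters, library weights, no variance trend, a replicate block, a fit of the 24 injured libraries and leaving out each library.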

Additional observations from a re-analysis of the deposited data

How the results depend on the processing

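The number of genes called between WT D1 and D4, 1294 (1109 higher, 185 lower), depended on single libraries and on the weighting of libraries. Leaving out each library in turn gave from 247 to 1367 calls, from 221 to 1228 higher and from 26 to 139 lower genes, and 231 genes held in all 6 fits (333 held in each fit that tested them, since 244 failed the filter in at least 1). Without the filter 751 genes were called (673 higher, 78 lower), and with a minimum of 5 TPM 877. Lower calls rose to 426 with median-of-ratios scaling, 461 with quantile normalization and 410 without the 50 most abundant genes. The fit of all 24 injured libraries, which estimates the spread from 8 groups, gave 3036 calls (2224 higher, 812 lower). Library quality weights gave 5227 calls (3794 higher, 1433 lower) in the WT step and 2354 in the difference of the WT and KO steps, for which every other fit, each with 1 library left out included, gave 0. These weights ranged from 0.324 to 5.17 and left the fit to few libraries. Their iterative estimate did not converge, so a gene-by-gene estimate was used.

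Replicate numbers did not pair the libraries: the correlations of same-numbered deviations were -0.131, -0.339 and 0.354, and D1 replicate 2 correlated best with D4 replicate 1 (0.579). The replicate block gave 1450 calls, with 1170 higher and 280 lower, the latter over 1.5 times the main count. It gave 0 for the difference of the steps. Of 79 called genes named by rule, 0 reversed under any alternative, 72 kept the call under the 3 scalings, 78 kept it with the block, and 36 lost it in at least 1 fit without a library. Of the named genes that were not called, 40 were called in the fit of 24 libraries. Depth is unknown, so low genes carry an error that cannot be stated.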
